A study of Mus musculus with 4 samples.

Results

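Secreted Wnt antagonists and genes that respond to Wnt were described on 4 arrays of primary mouse chondrocytes. The genes were 7 antagonists (Dkk1, Dkk2, Dkk3, Sfrp1, Sfrp2, Frzb and Wif1), 1 ligand (Wnt5a) and 2 targets of Wnt signalling (Axin2 and Lef1). They were chosen by name, and their probes by the RefSeq transcript that the array files give, which yielded 11 probes for 10 of 37042 genes or unnamed transcripts. Axin2 had a pair of probes and the other 9 genes had 1 probe each.

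The study examined what Rela, the p65 subunit of NF-κB, does in the limbs of mouse embryos and in adult articular cartilage. Its arrays were run to find target genes through which Rela counters apoptosis, in chondrocytes with or without the inflammatory cytokine TNF. Both genotypes were C57BL/6J and carried floxed Rela on both alleles. Chondrocytes came from 6-day-old Rela fl/fl mice and from Prrx1-Cre; Rela fl/fl mice (cKO), and were kept for 3 days with 10 ng/ml TNF or without it. Prrx1-Cre is active in limb bud mesenchyme, from which limb cartilage and the other connective tissues of the limb descend, so it is not restricted to chondrocytes. Rela fl/fl cells, labelled as the control, are called controls here. The 4 groups, untreated and TNF-treated controls and untreated and TNF-treated cells labelled cKO, had 1 array each. No value below has a replicate, no test between groups was possible, and every difference is one between individual arrays.

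Wnt proteins are secreted ligands that bind Frizzled receptors and the co-receptors Lrp5 and Lrp6, and in the canonical pathway this stabilises β-catenin, which activates target genes together with TCF and LEF factors. Secreted antagonists act outside the cell. Sfrp proteins, Frzb and Wif1 bind Wnt ligands, whereas Dkk1 and Dkk2 bind Lrp5 and Lrp6. In joints, Wnt signalling takes part in cartilage formation and maintenance, and Frzb was first isolated from articular cartilage.

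The 250 bases before the transcription start are shown for 3 members: Sfrp2 and Frzb, which had lower signals on the cKO-labelled arrays in both treatments, and Dkk1, which held the motif match described next. The sequences are RefSeq's for GRCm38.p6, read 5′ to 3′ in the direction of transcription, and capitals mark a match to a searched motif.
Sfrp2, chr3:83766071-83766320, plus strand: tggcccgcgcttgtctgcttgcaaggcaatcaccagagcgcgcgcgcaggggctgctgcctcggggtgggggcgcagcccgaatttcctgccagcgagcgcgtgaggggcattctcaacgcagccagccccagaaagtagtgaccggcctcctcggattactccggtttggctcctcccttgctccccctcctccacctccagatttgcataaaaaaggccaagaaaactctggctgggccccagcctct
Frzb, chr2:80447397-80447646, minus strand: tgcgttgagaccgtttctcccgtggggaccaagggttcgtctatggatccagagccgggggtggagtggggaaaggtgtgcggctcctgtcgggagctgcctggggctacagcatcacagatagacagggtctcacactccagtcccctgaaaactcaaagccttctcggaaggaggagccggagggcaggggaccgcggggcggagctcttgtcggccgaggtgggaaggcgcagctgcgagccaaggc
Dkk1, chr19:30549497-30549746, minus strand: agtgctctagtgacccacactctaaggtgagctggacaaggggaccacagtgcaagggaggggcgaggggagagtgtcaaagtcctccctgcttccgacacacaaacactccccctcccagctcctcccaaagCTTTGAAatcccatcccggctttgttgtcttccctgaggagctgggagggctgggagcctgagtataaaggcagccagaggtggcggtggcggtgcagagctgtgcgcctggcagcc
Such sequences were given for 7 of the 10 genes, in 10 windows of 250 bases. Lef1 had 4 of these windows, 2 of which overlap, and the other 6 genes had 1 each, so the windows are not independent. Dkk3, Sfrp1 and Wnt5a had none. The NF-κB consensus motif, searched on both strands, had no match in the 10 member windows, and 5.0% of 32851 mouse promoters of the same length held one. The TCF/LEF motif CTTTGAA or CTTTGAT, searched on both strands, matched 1 of the 10 windows and 7.48% of all promoters. That match, CTTTGAA, lay 117 to 111 bases upstream of the Dkk1 start. A match or its absence describes the letters of these windows only.

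Some facts of the arrays touch all values. Signal was the deposited processed intensity divided by the 75th percentile of its array, so that 1 is that percentile, and differences are given on the log2 scale. Each array held 59305 transcript spots, and 50.9 to 58.1% of the probes were well above background by the scanner software's flag. The technical spread, taken from 399 probes spotted 10 times, gave an SD of 0.26 for a log2 difference between arrays at signals under 0.3, 0.11 at signals from 0.3 to 3, and 0.081 above that. It covers spotting and scanning, not cultures or mice. Between 1.04 and 10.8% of the spots of an array lay in patches, areas in which neighbouring spots were brighter on that array than on the other 3, and Sfrp2, Frzb, Lef1 and Wnt5a each had a spot in a patch on 1 array. Rela itself was not lower on the cKO-labelled arrays, with signals of 28.4 and 34.9 in untreated and TNF-treated controls and 34.0 and 40.2 on the cKO-labelled arrays. Its probe was not placed relative to the floxed exons, so the deletion was not checked by it. All 6 TNF response genes were higher with TNF in controls, 5 of them by a log2 difference of 1 or more (2.39% of all genes). All 6 were lower on the TNF-treated cKO-labelled array than on its control counterpart, 5 of them by 1 or more (3.21% of all genes). Xist was well above background on both control arrays and on neither cKO-labelled array. The Y-linked genes Ddx3y and Eif2s3y were well above background on all 4 arrays, and higher on the cKO-labelled arrays by 1.49 to 1.83. The sex composition of the samples and the genotype label therefore cannot be told apart. All 12 chondrocyte markers were well above background on the 4 arrays.

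Among the 8 genes detected on all 4 arrays, Sfrp2 had the largest difference in 3 of the 4 comparisons, the exception being TNF in controls, where Wnt5a, Frzb and Axin2 differed more. Sfrp2 binds Wnt ligands through a domain related to that of their Frizzled receptors. Its signal (NM_009144) was 1.63 in untreated and 1.29 in TNF-treated controls, and 0.403 and 0.104 on the untreated and TNF-treated cKO-labelled arrays. In intensity units these were 999, 793, 255 and 61.4, all well above background. Both cKO-labelled arrays therefore lay below both control arrays, and within each genotype the array with TNF was the lower one. The share of all genes whose genotype labels separate in this way is not given here. Without TNF the cKO-labelled array was 4.06-fold lower (log2 difference -2.02), and with TNF it was 12.4-fold lower (-3.63, or -2.77 with normexp background correction). These differences were 17.8 and 32.0 technical spreads at the gene's mean signal, where the spread was 0.11. The signal of 0.104 alone falls in the dimmer band, where it was 0.26. TNF went with a 3.86-fold lower signal on the cKO-labelled arrays (-1.95, or -1.31 with normexp) and with a difference of -0.34 in controls, which was 3.02 spreads. The difference of these TNF changes was -1.61, or 10.0 of its own spreads, and -0.997 with normexp. In bulk RNA, fewer cells that express a gene and less of its RNA per cell cannot be told apart.

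The Sfrp2 spot lay in a patch on the TNF-treated control array, where 12 of its neighbours were bright, and in none on the other 3 arrays. The difference between genotype labels without TNF and the TNF difference on the cKO-labelled arrays do not use that array. For the first of these, surrounding spots were taken from the 54 positions within 5 rows and 2 columns of the Sfrp2 spot. The 16 that were well above background on both arrays had a median log2 difference of 0.02 and ranged from -0.38 to 0.23. Spots dim on either array were left out, so spots that a patch lifted from a dim level are not covered. Of 16300 genes that were well above background throughout and outside patches on these arrays, 3 had a lower value than Sfrp2. For TNF on the cKO-labelled arrays, 9 of 18145 such genes had a lower value. There the 20 surrounding spots chosen in the same way had a median of -0.04 but reached from -2.70 to 0.37. At least 1 of them was thus lower than Sfrp2 at -1.95, and 2 neighbours were bright on the untreated cKO-labelled array. The 12.4-fold difference with TNF, the TNF difference in controls and the difference of the TNF changes use the array with the patch. For the 12.4-fold difference the surrounding spots, chosen in the same way, had a median of -0.21 and reached from -3.26 to 0.22. The part of the surrounding spots in these values was not tested.

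Frzb, also named Sfrp3, was lower on the cKO-labelled arrays as well. Frzb (NM_011356) read 4.52 and 3.28 in untreated and TNF-treated controls, and 2.09 and 1.76 on the untreated and TNF-treated cKO-labelled arrays. Both cKO-labelled arrays read below both control arrays, as they did for Sfrp2, Sfrp1 and Wif1, while Lef1 separated the other way. The share of all genes that separate is not given here. The cKO-labelled array was 2.16-fold lower without TNF (-1.11, 9.82 spreads) and 1.87-fold lower with TNF (-0.90, 7.95 spreads). The first passed a log2 difference of 1 and the second did not. The Frzb spot lay in a patch on the untreated control array, with 5 bright neighbours, and in none on the others, so the 1.87-fold difference is free of patches. TNF went with a lower value in both genotypes, by -0.46 in controls and by -0.25 on the cKO-labelled arrays. Those TNF changes differed by 0.21, which was 1.33 spreads.

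Sfrp1, another member of this family, was lowest on the TNF-treated cKO-labelled array. Its signal (NM_013834) was 0.230 and 0.235 in untreated and TNF-treated controls, and 0.175 and 0.115 on the cKO-labelled arrays. These were 141, 145, 111 and 67.9 intensity units, all well above background and outside patches. The control arrays were alike within the spread, with a TNF difference of 0.03, and the TNF-treated cKO-labelled array lay below the other 3. It was 2.04-fold below its control counterpart (-1.03, 3.95 spreads). With quantile normalization or normexp background correction, this difference was -0.89 and -0.62, under the limit of 1. Without TNF the genotype labels differed by -0.39, or 1.51 spreads. TNF went with -0.61 on the cKO-labelled arrays (2.32 spreads), and the TNF changes differed by -0.64, which was 1.73 spreads.

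Sfrp1, Sfrp2 and Frzb thus had lower signals on the cKO-labelled array in both treatments, with log2 differences from -0.39 to -3.63. Wif1, which binds Wnt ligands through a different domain, stayed within a narrow range. Wif1 (NM_011915) gave signals of 2.11 and 1.86 in untreated and TNF-treated controls, and 1.79 and 1.69 on the cKO-labelled arrays. The largest of its 4 differences was -0.24 between genotype labels without TNF, or 2.10 spreads, and the others were at most 1.58 spreads from 0. All 4 were negative.

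**Figure D1:**
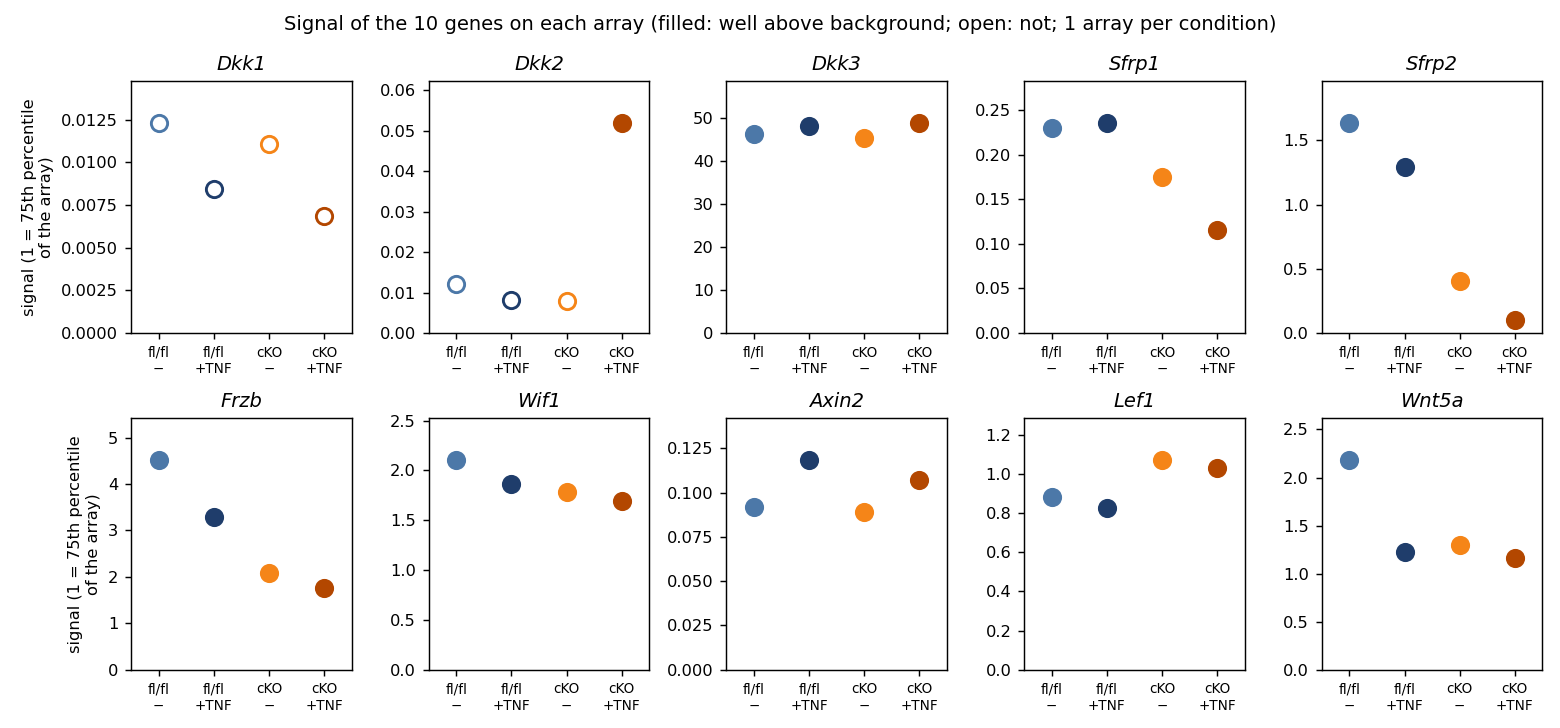
Signal of each of the 10 genes on each array, on a linear axis that starts at 0, where 1 is the 75th percentile of the array. Each point is 1 array, so there are no error bars, and open points were not well above background. Sfrp2 ranged from 1.63 to 0.104, Dkk3 stayed between 45.3 and 48.9, and Dkk2 was well above background only on the TNF-treated cKO-labelled array.

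The Dkk family gave 3 different patterns. Dkk1 (NM_010051), which blocks the co-receptors Lrp5 and Lrp6, was not well above background on any array, with intensities of 4.03 to 7.52 units. Its values carry no fold change. The lowest intensity that was well above background on an array was between 15.7 and 32.2 units.

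Dkk2 (NM_020265), a related ligand of the same co-receptors, was not well above background on 3 arrays and passed on the TNF-treated cKO-labelled array. Its intensities were 7.38 and 5.04 units in untreated and TNF-treated controls, and 5.08 and 30.6 on the cKO-labelled arrays. Set against the lowest signal well above background on the dimmer array, Dkk2 was at least 2.0-fold higher with TNF on the cKO-labelled arrays. It was at least 1.4-fold higher than in TNF-treated controls. The intensity of 30.6 units would not have exceeded the lowest one well above background on the untreated control array, which was 32.2. The Dkk2 bound passed 2-fold narrowly, and without scaling between arrays, with the authors' scaled values or with normexp it did not pass. A single probe, spotted once and detected on 1 array, carries this value.

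Dkk3 is a divergent family member that is not known as a blocker of Lrp5 and Lrp6. Its signal (NM_015814) was 46.3 and 48.3 in untreated and TNF-treated controls, and 45.3 and 48.9 on the cKO-labelled arrays. The 4 arrays lay close together. The differences were 0.06 and 0.11 for TNF in controls and on the cKO-labelled arrays, and -0.03 and 0.02 between genotype labels without and with TNF. None of these exceeded 1.36 technical spreads.

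Wnt5a, a ligand that signals mostly without β-catenin, had 1 array apart from the other 3. Wnt5a (NM_009524) read 2.19 in untreated and 1.23 in TNF-treated controls, and 1.30 and 1.17 on the untreated and TNF-treated cKO-labelled arrays. TNF went with a 1.78-fold lower value in controls (-0.84, 7.37 spreads) and with -0.16 on the cKO-labelled arrays (1.39 spreads). Between genotype labels the difference was -0.75 without TNF and -0.07 with TNF. The untreated control array was thus the high one, and on that array the Wnt5a spot lay in a patch with 10 bright neighbours. Both differences without that array, -0.16 and -0.07, were within 2 technical spreads of 0. The part of the patch in the larger values was not tested.

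Among values well above background, the differences of the target genes reached 0.37 for Axin2 and 0.32 for Lef1. Axin2, a scaffold of the complex that degrades β-catenin and a widely used readout of canonical Wnt signalling, was dim but well above background with 1 of its probes. That probe gave signals of 0.0920 and 0.119 in untreated and TNF-treated controls, and 0.0893 and 0.107 on the cKO-labelled arrays. The arrays with TNF were the higher ones in both genotypes, by 0.37 and 0.26, which were 1.41 and 1.01 spreads. Between genotype labels Axin2 differed by -0.04 without TNF and -0.15 with TNF, both under 1 spread. Its other probe was not well above background on any array. Averaging both probes turned the TNF difference in controls to -0.74 and the differences between genotype labels to -0.58 without and 0.38 with TNF.

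Lef1, a DNA-binding partner of β-catenin that is itself induced by Wnt in many cells, was the only member with higher signals on both cKO-labelled arrays among those well above background throughout. Its signal (NM_010703) was 0.884 and 0.826 in untreated and TNF-treated controls, and 1.07 and 1.03 on the cKO-labelled arrays. Between genotype labels Lef1 was higher by 0.28 without TNF (2.47 spreads) and by 0.32 with TNF (2.84 spreads), so 1.21-fold and 1.25-fold. Its spot lay in a patch on the untreated cKO-labelled array and in none on the arrays of the second comparison. The TNF differences were -0.10 and -0.06, within the technical spread.

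**Figure D2:**
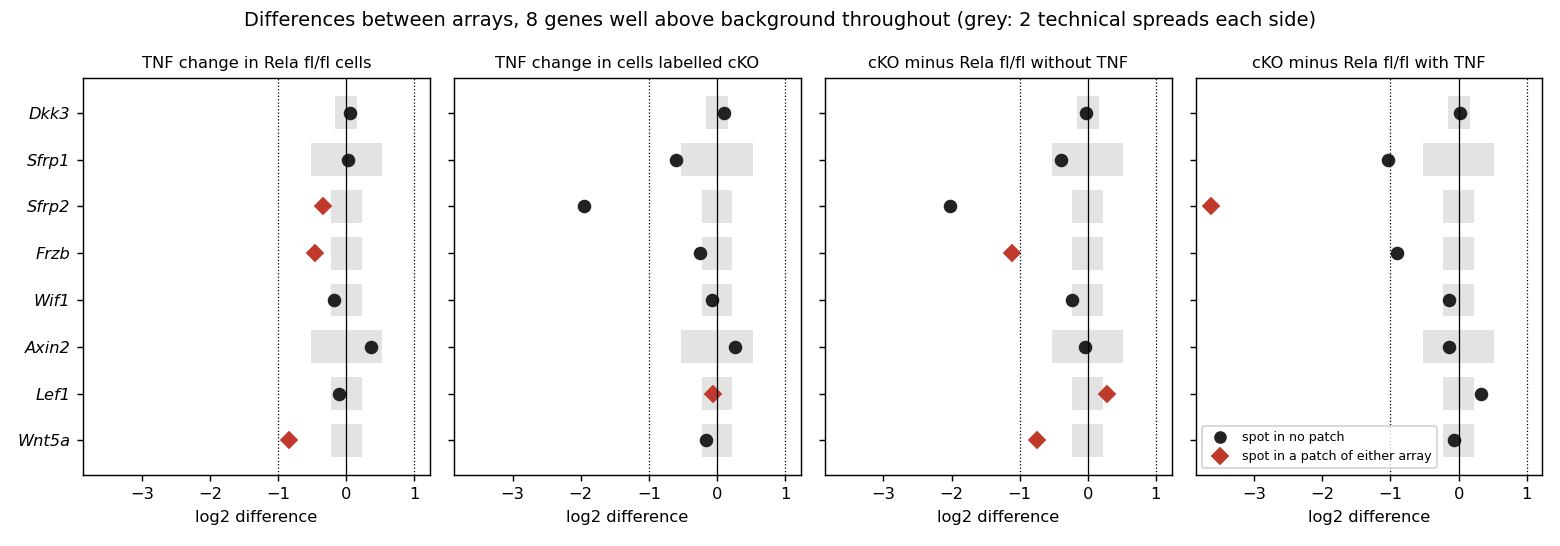
Log2 differences between arrays for the 8 genes detected well above background on every array, 1 panel per comparison. Grey bars span 2 technical spreads on each side of 0, dotted lines mark a log2 difference of 1, and red diamonds mark values for which the spot lay in a patch on either array. Sfrp2 lies at -2.02 and -3.63 in the comparisons of genotype labels, and Dkk3 lies within the grey bar in all 4.

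Counted over the 10 genes, changes past a log2 difference of 1 were few. A gene was counted when at least 1 of the compared arrays was well above background, and it passed only if the brighter one was. In controls, 0 of the 8 genes that could be counted passed with TNF, where 2.39% of 23408 genes were higher and 4.27% were lower. On the cKO-labelled arrays, 1 of 9 was higher with TNF (Dkk2, background 1.02% of 24903 genes) and 1 was lower (Sfrp2, background 4.46%). Between genotype labels without TNF, 2 of 8 were lower on the cKO-labelled array (Sfrp2 and Frzb, background 4.4% of 24277 genes) and 0 were higher (background 3.51%). With TNF, 2 of 9 were lower (Sfrp1 and Sfrp2, background 3.21% of 24513 genes) and 0 were higher (background 1.16%). Sfrp2 was the member lower in both comparisons of genotype labels, as were 105 of the 22835 genes counted in both. With 8 or 9 genes counted, 1 gene more or less changes these shares greatly, and Dkk1 could not be counted.

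The background shares were lower with the patches left out. When spots in patches on either of the compared arrays were left out, the shares higher and lower were 0.588% and 0.707% for TNF in controls and 0.921% and 1.78% for TNF on the cKO-labelled arrays. Between genotype labels they were 1.27% and 1.06% without TNF and 1.07% and 1.07% with TNF. Among the members, Sfrp2 was still lower without TNF and with TNF on the cKO-labelled arrays, Sfrp1 was still lower between genotype labels with TNF, and Dkk2 still passed as a bound. Frzb without TNF and Sfrp2 between genotype labels with TNF dropped out, because their spots lay in patches.

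Over the members that could be counted, the median log2 difference was -0.14 for TNF in controls, -0.08 for TNF on the cKO-labelled arrays, -0.32 between genotype labels without TNF and -0.14 with TNF. Over all genes counted, the medians were 0.01, 0.06, 0.00 and 0.05. Between genotype labels without TNF, 7 of 8 members lay below 0, against 45.4% of all genes. With TNF, 6 of 9 did, against 39.1%. The comparisons share arrays, so these counts are not independent of each other.

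**Figure D3:**
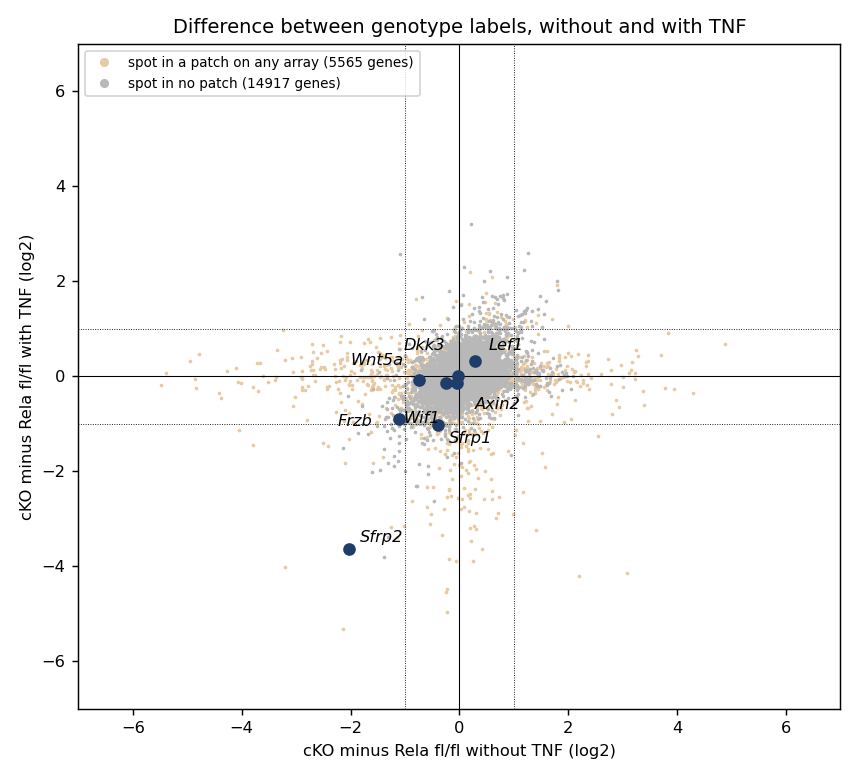
Log2 difference of the cKO-labelled array minus the control array, without TNF (horizontal) and with TNF (vertical), for the 20482 genes well above background on all 4 arrays. Sand-coloured points are genes with a spot in a patch on any array, which spread along the axes, and blue points are the members. Sfrp2 lies in the lower left at -2.02 and -3.63, and Frzb and Sfrp1 lie nearer to the centre on the same side.

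Of 12 chondrocyte markers, 2 passed a log2 difference of 1 between genotype labels without TNF and 1 with TNF, all lower on the cKO-labelled array. Of all genes, 4.4% and 3.21% were lower by that much without and with TNF. The summed signal of the 12 was 1722 and 1630 in untreated and TNF-treated controls, and 1352 and 1387 on the cKO-labelled arrays. All 12 had values below 0 between genotype labels in both treatments, against 45.4% and 39.1% of all genes without and with TNF. The medians of the 12 were -0.56 without and -0.35 with TNF, and Matn1, a cartilage matrix protein, differed by -1.86 and -1.19. Col9a2, a cartilage collagen chain, differed by -1.07 without TNF. Col2a1, the main cartilage collagen, was at -0.03 and -0.01, within the technical spread. The 8 fibroblast markers, all well above background, summed to 644 and 658 in controls and to 591 and 572 on the cKO-labelled arrays. Their medians between genotype labels were -0.31 and -0.39. Of the fibroblast markers, Dpt, with its spot in a patch, differed by -1.62 without and -1.17 with TNF, and Thy1 by -1.59 and -0.28. Osteoblast markers went the other way. The 3 measured ones summed to 4.28 and 3.55 in untreated and TNF-treated controls and to 9.30 and 7.01 on the cKO-labelled arrays, with Dmp1 not well above background. Ibsp, a bone matrix protein, was higher between genotype labels by 1.13 and 0.97. Sp7, an osteoblast transcription factor, was higher by 0.70 without TNF and by at least 1.8 with TNF. Leukocyte markers went both ways. Their sum, from 34.95 to 43.9, was mostly Itgam (31.8 to 40.4), while Lyz2 differed by -2.11 and Adgre1 by 2.87 between genotype labels without TNF, both with spots in patches, and Ptprc was not well above background. The 4 synovial lining and tendon markers summed to 16.9 and 25.7 in untreated and TNF-treated controls, and to 20.5 and 24.95 on the cKO-labelled arrays. Without TNF, Scx and Prg4 differed by 0.40 and 0.13 between genotype labels, and Mkx and Tnmd by -0.19 and -1.73. The Prg4 and Tnmd spots lay in patches there. The sums of 4 endothelial markers ranged from 17.7 to 20.7, with Cdh5 and Tek not well above background. The part of cell composition in the lower Sfrp2, Sfrp1 and Frzb signals was not tested.

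Of 86 other genes of the Wnt pathway, in 8 lists by role, 68 to 72 could be counted in a comparison. With TNF in controls, 0 were higher and 2 lower of 68, against 2.39% and 4.27% of all genes. With TNF on the cKO-labelled arrays, 3 were higher and 2 lower of 72, against 1.02% and 4.46%. Between genotype labels without TNF, 3 were higher and 3 lower of 69 (3.51% and 4.4% of all genes), and with TNF 2 were higher and 1 lower of 71 (1.16% and 3.21%). The medians of the 86 genes in these comparisons lay between 0.00 and 0.06.

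The other members of the Sfrp family went different ways. Sfrp5 gave signals of 0.230 and 0.182 in untreated and TNF-treated controls, and 0.0804 and 0.0887 on the cKO-labelled arrays, with differences of -1.52 and -1.04 between genotype labels and no patch involved. Sostdc1, an antagonist of Wnt and BMP, was 2.22-fold lower on the untreated cKO-labelled array by its brighter probe, which was not well above background there. Its other probe, well above background on both untreated arrays, differed by -0.71. Sfrp4 was instead higher between genotype labels, by 0.11 without and 0.63 with TNF. None of the other antagonists of that list passed the limit in any comparison, and Sost, the osteocyte antagonist, was not well above background on any array.

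Among the ligands, Wnt10b and Wnt11 were higher on the untreated cKO-labelled array by 1.08 and 1.33, and by 0.68 and 0.56 with TNF. Rspo1, a secreted enhancer of Wnt signalling, was likewise higher by 1.37 and 0.73. Wnt10a was higher with TNF by 1.16 on the cKO-labelled arrays and by 0.69 in controls. Wnt8a and Wnt8b passed the limit only as bounds on dim spots in patches. Lgr5, a receptor for R-spondins and a Wnt target, was lower with TNF in both genotypes, by -1.16 in controls and -1.31 on the cKO-labelled arrays. Its signals were 0.153 and 0.0684 in controls, and 0.133 and 0.0536 on the cKO-labelled arrays, outside patches.

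The counts for the core of the pathway were 0. None of 9 genes of β-catenin and its destruction complex and none of 8 TCF factors and co-factors passed a log2 difference of 1 in any of the 4 comparisons, and the 9 genes of the complex ranged from -0.41 to 0.32. With 1.02 to 4.46% of all genes passing in a direction, a count of 0 among 8 or 9 genes sets neither list apart. Of the receptors and co-receptors, 1 passed in 1 comparison, Fzd10. It was well above background only with TNF. With TNF it was 2.11-fold higher on the cKO-labelled arrays by measured signal, and higher by at least 0.80 on the log2 scale in controls. Ccnd1, a cell cycle gene, was 1.03 higher on the TNF-treated cKO-labelled array than on its control counterpart, and Cd44, a hyaluronan receptor, was 1.18 higher. Cd44 was also 1.03 higher with TNF on the cKO-labelled arrays by its brightest probe, while its 3 probes detected there ranged from 0.06 to 1.03. Axin2 and Lef1 did not pass in these comparisons.

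**Figure D4:**
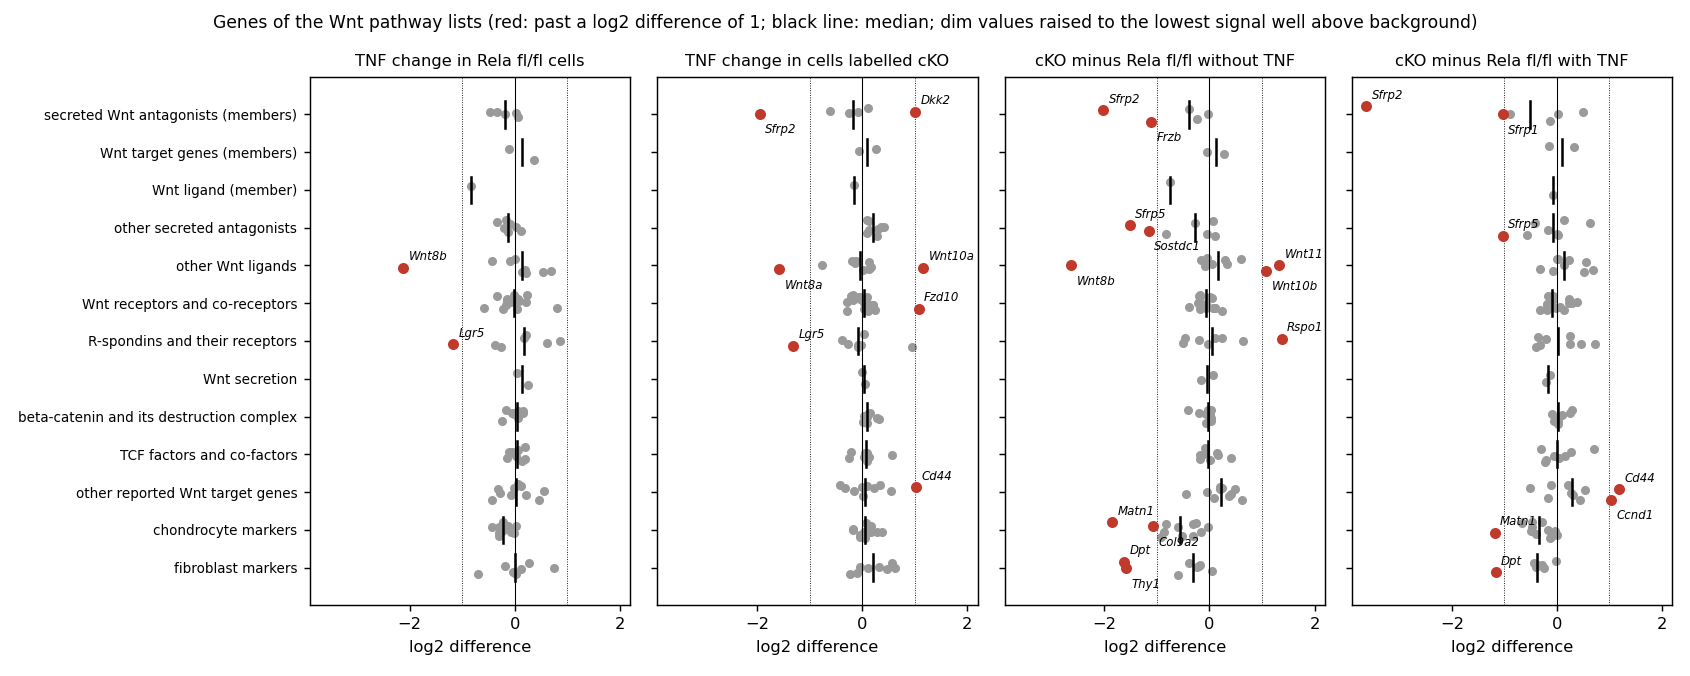
Log2 differences in the 4 comparisons for the 10 members, the 86 other Wnt pathway genes by list, and the chondrocyte and fibroblast markers. Each point is a gene with at least 1 of the compared arrays well above background, red points passed a log2 difference of 1, and black lines are list medians. The lists of β-catenin and its destruction complex and of TCF factors hold no red points, and Sfrp2 lies at -1.95, -2.02 and -3.63.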

How the data were processed

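Total RNA of primary chondrocytes was labelled with Cy3 and hybridised to 4 one-colour Agilent mouse arrays, 1 per group. The authors deposited the processed spot intensity from Agilent Feature Extraction 10.10.1.1, which corrects for background and for spatial trends, and per the file headers a flag (0 or 1) for signal well above background. A second intensity table that the authors deposited equalled the processed intensity times 1 factor per array (1.77 to 1.83) and was used as an alternative. How that factor was set is not given in the sources used here.

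From the intensity, the log2 value was taken and each array's 75th percentile of transcript spots was subtracted. Outlier spots were left out, a probe's spots were averaged, and a gene took its brightest probe by mean. Symbols came from RefSeq accessions (GRCm38.p6). The array design names another build (mm9), so no probe coordinates are given. The only coordinates printed are those of the promoter windows, on GRCm38.p6. Genes with either compared array well above background were counted, a gene passed at a log2 difference of 1 with the brighter array well above background, and a value not well above background was set to no less than the faintest signal its array detected. Patches were spots with 3 or more bright neighbours among 54 (5 rows and 2 columns to each side), bright meaning 2-fold or more above the other 3 arrays, a rule taken from earlier work on these data that was set with gene counts in view. Alternatives changed the scaling, the background correction (normexp, offset 50, on median intensity because mean intensity was not used here), the filter, the probe summary, the limit and the patches. The counting was tested on simulated data. Python 3.11.15 (numpy 2.4.6, pandas 2.3.3) and R 4.3.3 (limma 3.58.1) were used.

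All members were named, and from the other Wnt pathway lists every gene that passed the limit in any comparison. Marker genes were named as examples. The members and lists were chosen with earlier results of these data known. The number of arrays limits the precision, and the 4 samples say nothing of variation between cultures or mice.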

Additional observations from a re-analysis of the deposited data

How the results depend on the processing

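No paired analysis was possible because each group had 1 array and the labels give no replicate number that groups share. Over the alternatives, 328 of 362 log2 values of single members stayed within 1 technical spread and 34 moved further. Part of the 328 was fixed in advance, so this share does not measure robustness. Dropping the filter (50 values) or leaving out patches (30 and 32 values) cannot change a difference of a probe spotted once. Averaging probes (50 values) can change Axin2 only. No value past the limit changed sign. Of smaller values, 23 changed sign (10 of Dkk3, 6 of Axin2, 3 of Dkk1), 9 of them with a move of over 1 spread. Among them was Axin2 for TNF in controls, from 0.37 to -0.74 with the mean over probes. Those of Dkk1 are between signals not well above background and carry no direction. Of the 34, 12 belonged to Dkk1 and Dkk2, which were dim, and normexp and quantile normalization gave 16 and 12 of them. The counts of members past the limit changed as follows. With TNF on the cKO-labelled arrays there were 2 (Dkk2 higher, Sfrp2 lower). There was 1, Sfrp2, with no scaling, the authors' values, normexp, both arrays required to be well above background or a 3-fold limit. With patches of any array left out there was also 1, but it was Dkk2. Between genotype labels with TNF there were 2 (Sfrp1 and Sfrp2 lower). There was 1 with quantile normalization, normexp or a 3-fold limit (Sfrp2), and 1 with patches left out by either rule (Sfrp1). Between genotype labels without TNF there were 2 (Sfrp2 and Frzb lower), with 1 at a 3-fold limit, 1 when patches of the compared arrays were left out and 0 when patches of any array were. For TNF in controls there were 0, and 1 at a 1.5-fold limit (Wnt5a). That limit gave 3 in each of the other comparisons, adding Sfrp1 for TNF on the cKO-labelled arrays, and Wnt5a and Frzb between genotype labels without and with TNF. No filter also gave 3 between genotype labels with TNF, adding Dkk2. Leaving out patches of the compared arrays was chosen after seeing the data. The cause of these changes was not tested, except that leaving out patches removes the genes concerned. For Sfrp2, the smallest differences over the alternatives were -1.78 without TNF and -2.77 with TNF between genotype labels and -1.31 for TNF on the cKO-labelled arrays, and the difference of its TNF changes was -0.997 with normexp. Dim members, chiefly Dkk1, Dkk2 and Axin2, were limited by their signal over background.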
